A study of Rattus norvegicus with 2 samples.

Results

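The genes described here encode the clathrin coat, its adaptors and the proteins that pinch off and uncoat endocytic vesicles. The 10 genes, Cltc, Clta, Cltb, Ap2a2, Ap2m1, Ap1b1, Amph, Sh3gl2, Dnm1 and Synj1, were chosen by name, and every probe set whose only gene symbol in the platform's annotation was one of them was taken, which gave 15 of 8740 non-control probe sets and 10 of 4736 genes so named. The synaptosome group was RNA from nerve endings, with their attached postsynaptic membranes, prepared biochemically from hippocampi of rats of the Sprague Dawley strain, aged postnatal day 70, and the total hippocampus group was RNA from the same tissue, strain and age without fractionation. Each group was 1 Affymetrix array, no treatment or genotype is named for either, and the number of animals behind each sample is not stated in the labels. The study asked which mRNAs are enriched at the synapse relative to the whole hippocampus.

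Nerve terminals retrieve the membrane of fused synaptic vesicles by endocytosis. The adaptor complex AP-2 binds cargo and the lipid phosphatidylinositol bisphosphate at the plasma membrane and recruits clathrin triskelia, which are built of heavy and light chains. Proteins with BAR domains, such as amphiphysin and endophilin, curve the neck of the coated pit, the GTPase dynamin cuts it, and the phosphatase synaptojanin removes phosphates from the lipid so that the coat can come off. These proteins are abundant in presynaptic terminals, while AP-1 forms clathrin coats at the trans-Golgi network and endosomes. A synaptosome holds the mRNAs of dendrites, axons and adhering glia, and an mRNA can be scarce there while its protein is plentiful.

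Signals of the members were the authors' deposited linear intensities, and a signal under a floor of 846 was treated as having no measured level. Log2 ratios are synaptosomes minus total hippocampus with the median of all filtered probe sets, -0.17, subtracted, so that a positive ratio means higher in synaptosomes. Through the centring, a fold above 1 is 1.13 times what the raw signals alone would give. Probe sets with a mean log2 level of at least 10.07 passed the filter. Calls below are made at 2-fold. A call is a description of these 2 arrays, since with 1 array a group no test was possible, and every value is a single measurement. In bulk RNA, fewer copies per synaptosome and fewer synaptosomes of one kind cannot be told apart.

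Of the 15 probe sets, 12 passed the filter. In synaptosomes 6 of these were higher by 2-fold or more, 1 was lower by 2-fold or more, and 5 did not reach 2-fold. Over all 4370 filtered probe sets, 19.1% were higher by that much and 14.9% lower. With the floor at 2798.5 the 6 and 1 became 2 and 0 of 9, and with each array's floor at the spread of its negative values 1 and 0 of 6, where the brighter Synj1 probe set alone passed 2-fold. The 6 higher probe sets belong to 4 genes (Synj1 and Ap1b1 with 2 each, Cltb and Clta with 1 each), so they are not 6 separate observations. The median ratio of the 12 was 0.74, against 0.00 for all filtered probe sets. Taken by gene, with the brightest filtered probe set for each, 9 of 10 genes were measured, of which Cltb, Synj1 and Ap1b1 were higher by 2-fold or more, Ap2a2 was lower by 2-fold or more and 5 did not reach it, where 19.1% and 14.3% of 2735 genes were higher and lower. One of the higher probe sets passed the filter through its synaptosome signal alone.

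**Figure D1:**
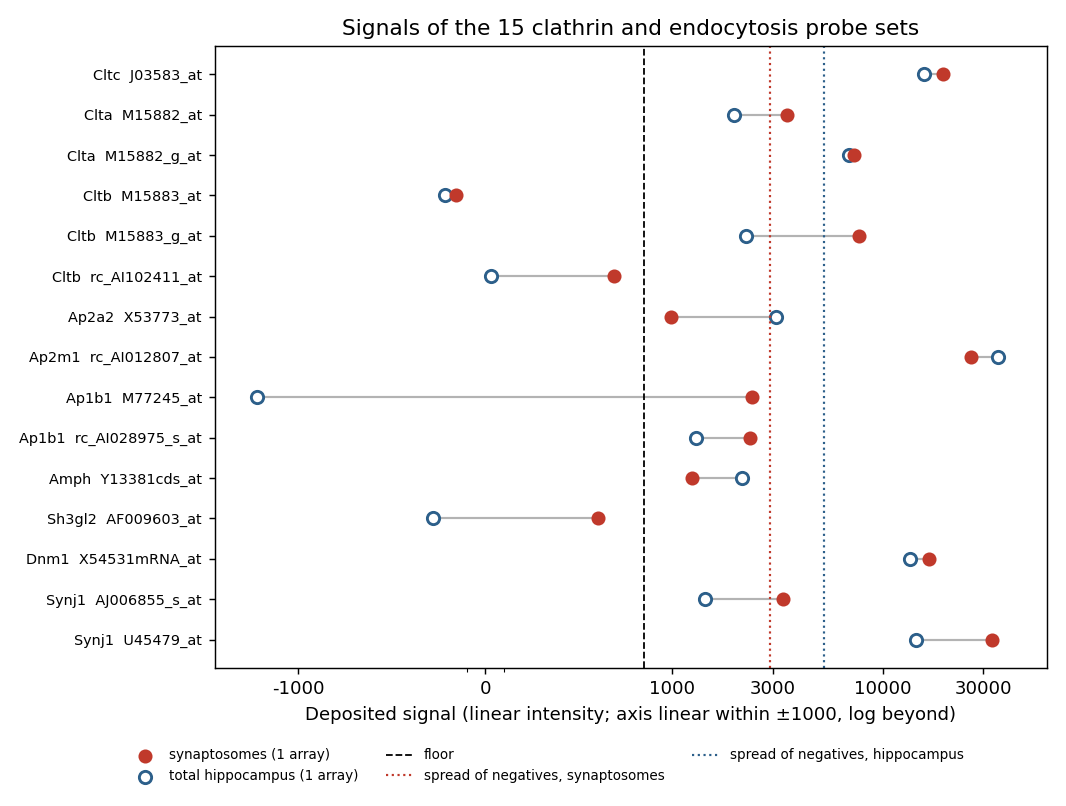
Deposited signal of each of the 15 member probe sets (rows, ordered by role from coat to uncoating) in synaptosomes (filled) and total hippocampus (open), 1 array each, on an axis that is linear around 0 and logarithmic beyond. The dashed line is the floor of 846 and the dotted lines mark each array's spread of negative values, 2912.6 in synaptosomes and 5280.25 in total hippocampus. Only Cltc, Ap2m1, Dnm1 and the brighter probe sets of Clta and Synj1 lie to the right of their array's dotted line with both signals.

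The only errors that can be measured come from the arrays themselves. Filtered probe sets of one gene had ratios with a standard deviation (SD) of 0.90 on the log2 scale over 658 genes, and where both signals lay above the spread of negative values this SD was 0.53 over 155 genes. Both describe single ratios about the mean of their gene, and differences between ratios vary more. Both leave out animals, fractionations and amplifications. The spread of negative values, taken as percentile 95 of the sizes of negative signals, was 2912.6 in synaptosomes and 5280.25 in total hippocampus. Both signals exceeded it in 5 of the 15 probe sets, and ratios of the other 7 filtered ones rest on at least 1 signal inside it.

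Clathrin forms the coat itself. Cltc, the heavy chain whose trimers make up the triskelion, read 19293 in synaptosomes, against 15629 in total hippocampus (J03583_at). Its log2 ratio was 0.47, or 1.39-fold with the centring and 1.23-fold without it, which is smaller than the SD of 0.53 between bright probe sets of one gene. Cltc mRNA was therefore bright on both arrays, with no difference beyond that spread.

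The light chains Clta and Cltb bind the heavy chain and regulate the assembly of the coat. The brighter probe set of Clta read 7261 in synaptosomes, against 6929 in total hippocampus (M15882_g_at), with a log2 ratio of 0.24. The dimmer one, designed on the same source sequence, read 3514 in synaptosomes, against 1964 in total hippocampus (M15882_at), with a log2 ratio of 1.01. The ratios of the pair differed by 0.77. Over 309 such sets of probe sets on one source sequence, single ratios had an SD of 0.81 about their mean, and differences between ratios vary more. The dimmer probe set stands at the 2-fold threshold only with the centring, at 1.79-fold without it, so Clta showed no difference that both of its probe sets share.

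Cltb was measured by 1 of its 3 probe sets. That probe set read 7730 in synaptosomes, against 2237 in total hippocampus (M15883_g_at), a log2 ratio of 1.96, or 3.89-fold with the centring and 3.46-fold without it. The ratio lay at percentile 95.7 of all filtered probe sets. It exceeds the SD of 0.90 between probe sets of one gene, but the hippocampus signal lies inside that array's spread of negative values. With each array's floor set at that spread, the hippocampus signal was under the floor and the ratio became a bound of 0.72. The other 2 probe sets of Cltb gave no ratio. One of them, on the same source sequence, read -156 in synaptosomes, against -218 in total hippocampus (M15883_at), and the other read 687 in synaptosomes, against 29 in total hippocampus (rc_AI102411_at). Both are under the floor on both arrays, so the difference in Cltb stands on a single probe set.

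The adaptors link the coat to membrane and cargo. Ap2m1, the μ2 subunit of AP-2, which recognises tyrosine-based sorting signals, read 26208 in synaptosomes, against 35359 in total hippocampus (rc_AI012807_at). Its log2 ratio of -0.26 was smaller than the SD between bright probe sets of one gene, and it moved to -0.05 when the dependence of ratios on signal level was removed by loess. Ap2m1 stood at percentile 96.8 of all non-control signals in synaptosomes and at percentile 97.2 in total hippocampus, nearly the same place on both arrays.

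Ap2a2, the α2 subunit that anchors AP-2 to the membrane lipid and binds accessory proteins, was the only member at least 2-fold lower. It read 993 in synaptosomes, against 3116 in total hippocampus (X53773_at), a log2 ratio of -1.48, or 2.79-fold lower with the centring and 3.14-fold without it. Both signals lay inside the spread of negative values of their arrays, and the synaptosome signal was little above the floor. With the floor at 2798.5, the synaptosome signal was under the floor and the ratio became a bound of -0.07. With each array's floor at its spread of negative values no ratio remained. The direction of Ap2a2 thus rests on 2 dim signals of 1 probe set.

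Ap1b1, the β1 subunit of AP-1, had 2 probe sets on different source sequences, both at least 2-fold higher. One read 2343 in synaptosomes, against 1297 in total hippocampus (rc_AI028975_s_at), with a log2 ratio of 1.02, or 2.03-fold with the centring and 1.81-fold without it. The other read 2393 in synaptosomes, against -1575 in total hippocampus (M77245_at), so its fold is a bound, at least 3.18-fold with the centring and, from the floor alone, at least 2.83-fold. The synaptosome signals of the pair were close to each other, while their hippocampus signals lay on either side of the floor. All 4 signals of Ap1b1 were under the spread of negative values of their array, so the bound is not a guaranteed minimum. With the inverse hyperbolic sine, which keeps the negative reading, this probe set had a difference of 4.69, so its place relative to Cltb cannot be given.

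Membrane bending and scission are carried out by Amph, Sh3gl2 and Dnm1. Amph, or amphiphysin, a BAR protein that brings dynamin to the coated pit, read 1234 in synaptosomes, against 2136 in total hippocampus (Y13381cds_at). The log2 ratio was -0.62, inside the SD of 0.90. Sh3gl2, or endophilin A1, a brain-enriched BAR protein that binds dynamin and synaptojanin, read 601 in synaptosomes, against -281 in total hippocampus (AF009603_at), under the floor on both arrays. Neither its presence nor a difference was detectable with this probe set.

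Dnm1, the neuronal dynamin that cuts the neck of the vesicle, was bright on both arrays. It read 16626 in synaptosomes, against 13478 in total hippocampus (X54531mRNA_at), a log2 ratio of 0.47, or 1.39-fold with the centring and 1.23-fold without it. The ratio is within the SD of 0.53 between bright probe sets, as for Cltc.

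Synj1, or synaptojanin 1, the phosphoinositide phosphatase of vesicle uncoating, was the only member with a probe set past 2-fold in every one of the 8 alternatives of floor, scaling, filter and transform. The brighter probe set read 33177 in synaptosomes, against 14367 in total hippocampus (U45479_at), a log2 ratio of 1.38. The other, on a different source sequence, read 3351 in synaptosomes, against 1424 in total hippocampus (AJ006855_s_at), a log2 ratio of 1.40. The 2 ratios differ by 0.03, although the signals of the probe sets differ widely. The hippocampus signal of 1424 lies inside that array's spread of negative values, so the small gap is no measure of precision. The brighter probe set is the only one among those at least 2-fold higher whose signals both lie above the spread of negative values, and its ratio is larger than the SD of 0.53 between such probe sets. It stood at percentile 97.7 of signals in synaptosomes and percentile 93.7 in total hippocampus. Its ratios under those alternatives ran between 1.21 and 1.50. The dimmer probe set passed 2-fold in 6 of the 7 that gave it a value. With the floor at 2798.5 its hippocampus signal was under the floor, and its ratio became a bound of 0.34.

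**Figure D2:**
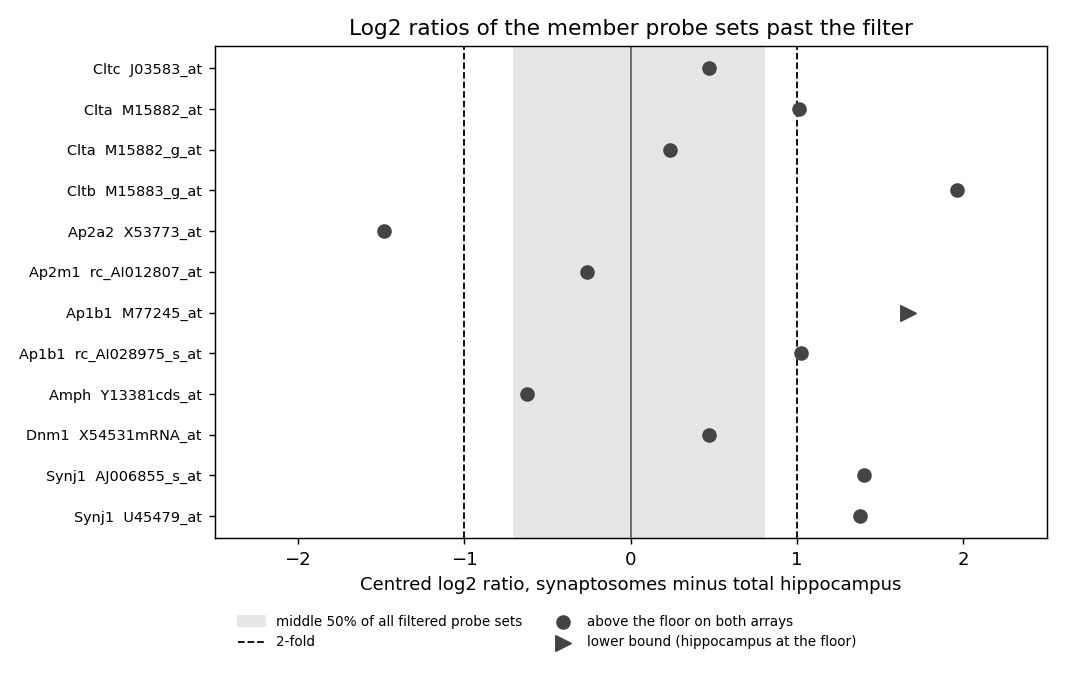
Centred log2 ratio, synaptosomes minus total hippocampus, of the 12 member probe sets past the filter, with dashed lines at 2-fold and a triangle for a lower bound where the hippocampus signal was under the floor. The shaded band is the middle 50% of all filtered probe sets, -0.70 to 0.80. Both Synj1 probe sets lie together near 1.4, the single measured Cltb probe set at 1.96 and Ap2a2 at -1.48.

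In order of the ratio of the brightest filtered probe set, the genes ran from Cltb at 1.96 through Synj1 at 1.38, Ap1b1 at 1.02, Cltc and Dnm1 at 0.47 each, Clta at 0.24, Ap2m1 at -0.26 and Amph at -0.62 to Ap2a2 at -1.48. Neighbours in this order differ by less than the SD of 0.90 between probe sets of one gene, without exception. Among the 5 probe sets with both signals above the spread of negative values, only Synj1 stood more than 0.53 from each of the others, with 0.90 between it and Cltc. The SD of 0.53 is that of single ratios, so it understates how far differences between ratios vary.

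**Figure D3:**
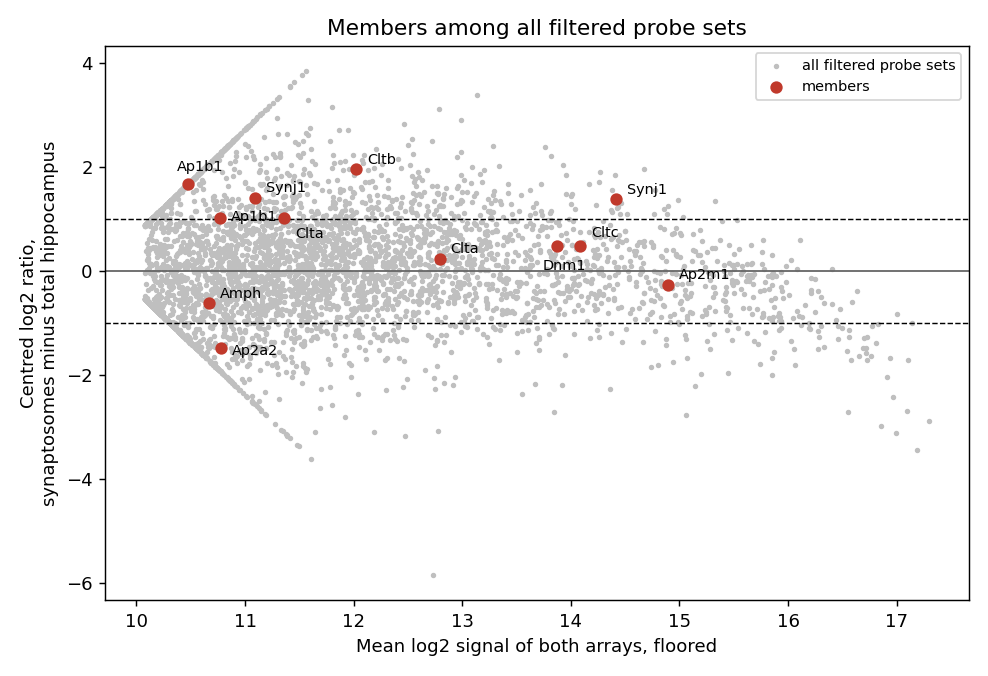
Centred log2 ratio against the mean log2 signal of both arrays, floored, for all 4370 filtered probe sets (grey) and the 12 member probe sets (red, named by gene), with dashed lines at 2-fold. The slanting edges at the left are probe sets with 1 signal at the floor, where Ap1b1 has its bound. Synj1, Dnm1, Cltc and Ap2m1 lie among the bright probe sets, and Synj1 alone of them is above the upper dashed line.

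Other genes of clathrin-mediated endocytosis and vesicle recycling were taken from a list of 83, of which 36 were on the array and 25 passed the filter. By the brightest filtered probe set, 7 were higher by 2-fold or more, 5 were lower by 2-fold or more and 13 did not reach it, beside 19.1% higher and 14.3% lower among all genes. These include genes that passed the filter through 1 array alone, such as Sh3gl1 and Rab4a, and with probe sets above the floor on both arrays the counts were 5 higher and 4 lower of 21. The median ratio of the 25 was -0.28, against 0.47 for the 9 measured members. Without centring the 7 higher genes became 4 and the 5 lower ones 7.

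Other subunits of the adaptor complexes can be set beside Ap1b1, Ap2a2 and Ap2m1. Ap1s1, the σ1 subunit of AP-1, read 3146 in synaptosomes, against 1694 in total hippocampus (rc_AA893202_at), a log2 ratio of 1.06. For Ap1b1 and Ap1s1, the probe sets with both signals above the floor were under 2-fold without the centring, at 1.81-fold and 1.86-fold, and the remaining one of Ap1b1 passed the filter through its synaptosome signal alone. Of the 5 filtered probe sets of AP-2, 1 was higher by 2-fold or more, 1 was lower by as much and 3 did not reach it. Over all filtered probe sets 19.1% were higher and 14.9% lower by that much, so nothing particular to AP-2 can be read from the count. Ap2b1, the β2 subunit that binds clathrin, had 3 probe sets, with log2 ratios of 1.01, 0.34 and -0.88. The brightest of them read 7436 in synaptosomes, against 4154 in total hippocampus (M77246_at). Ap2s1, the σ2 subunit, was under the floor on both arrays with both of its probe sets. Whether AP-1 differs from AP-2 was not tested.

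Paralogs of the bending and scission genes were measured for 3 of 5 genes. Dnm2, the widely expressed dynamin, and Dnm3 were under the floor on both arrays with all 3 of their probe sets. Sh3gl1, endophilin A2, read 2471 in synaptosomes, against 456 in total hippocampus (rc_AI010110_at), at least 3.29-fold higher with the centring and 2.92-fold without it. Both signals lay inside the spread of negative values of their array, so the bound is not a guaranteed minimum. Sh3gl3, endophilin A3, read 2434 in synaptosomes, against 3607 in total hippocampus (AF009604_at), a log2 ratio of -0.40. Bin1, the second amphiphysin, gave opposite results with its 2 probe sets on one source sequence. One read 2457 in synaptosomes, against 7937 in total hippocampus (rc_AI102031_at), 2.87-fold lower, and the other read 4084 in synaptosomes, against -4168 in total hippocampus (rc_AI102031_g_at), at least 5.43-fold higher, so no direction can be given for Bin1. Snap91, the neuronal clathrin assembly protein AP180, was under the floor on both arrays.

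Enzymes that make or remove the phosphoinositides of the coated pit were higher by 2-fold or more with 6 of 7 probe sets of 4 genes, beside 19.1% of all filtered probe sets. The grouping was made after the values were seen and includes both Synj1 probe sets, so nothing particular to it can be read from the count. The other genes were Synj2, Pip5k1c and Pi4ka, the only others of this role in the list that were on the array. Pip5k1c, the kinase that makes phosphatidylinositol bisphosphate at synapses, read 11251 in synaptosomes, against 3068 in total hippocampus (rc_AA799473_at), 4.13-fold higher. Synj2, the second synaptojanin, read 5294 in synaptosomes, against 2857 in total hippocampus (U90312_at), 2.09-fold higher with the centring and 1.85-fold without it. Pi4ka, a kinase that makes the precursor lipid, gave log2 ratios of 2.08 and 1.82 on 2 probe sets and of -0.61 on its dimmest, which read 931 in synaptosomes, against 1594 in total hippocampus (D83538_at). The probe sets with 1.82 and -0.61 were designed on the same source sequence, so they give opposite results for it. The hippocampus signals of Pip5k1c, Synj2 and Pi4ka all lay inside that array's spread of negative values.

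The small GTPases of the list, Rab and Arf proteins of membrane traffic, went both ways, in a grouping also made after the values were seen. Of 6 on the array, 4 were lower by 2-fold or more with the brightest filtered probe set, 1 was higher by as much and 1 did not reach it, beside 14.3% of all genes lower and 19.1% higher. Arf1, a GTPase mainly of the Golgi that recruits AP-1 to membranes, was the brightest of them, with 11208 in synaptosomes, against 30570 in total hippocampus (L12380_at), 2.42-fold lower. Rab4a was at least 2.82-fold lower and Rab11a 2.28-fold lower with its only filtered probe set, both GTPases of recycling. Another Rab11a probe set, on the same source sequence, did not pass the filter and went the other way. It read 1091 in synaptosomes, against 421 in total hippocampus (M75153_g_at), a bound of 0.54. The remaining Rab11a probe set, also outside the filter, had a bound of -0.20, so the probe sets of Rab11a do not share a direction. Rab5a, a GTPase of early endosomes, was 2.87-fold lower with 1 probe set, while the second, almost as bright, gave a log2 ratio of 0.60 and the mean of both was -0.46, and Rab5b was 2.37-fold higher, at 10538 in synaptosomes, against 4997 in total hippocampus (rc_AA866364_at). Arf6 had a log2 ratio of -0.42. Of these GTPases only Arf1 had both signals above the spread of negative values. For Rab4a, Rab5a, Rab11a and Arf6 both signals lay inside it, and for Rab5b the hippocampus signal did.

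Of 8 probe sets of clathrin assembly and accessory adaptors 3 passed the filter, and none of them reached 2-fold. Of 4 probe sets of the co-chaperones Gak and Dnajc5, 3 passed, and 1 of these, of Dnajc5, was lower by 2-fold or more. Over all filtered probe sets 19.1% were higher and 14.9% lower by that much, and with so few measured nothing particular to these groups can be read. The epsins Epn1 and Epn2, which bend membrane at the pit, had log2 ratios of -0.28 and -0.50, and Dab2, a cargo adaptor, had a bound of -0.96. Gak, a clathrin-uncoating cofactor, had 0.60. Dnajc5, the cysteine string protein of synaptic vesicles, had 0.76 with its brightest probe set and was at least 2.51-fold lower with another. Both signals behind that bound lay inside the spread of negative values of their array, so it is not a guaranteed minimum. The remaining Dnajc5 probe set was under the floor on both arrays. The cargo receptors Tfrc, Igf2r and Sort1 were under the floor on both arrays.

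**Figure D4:**
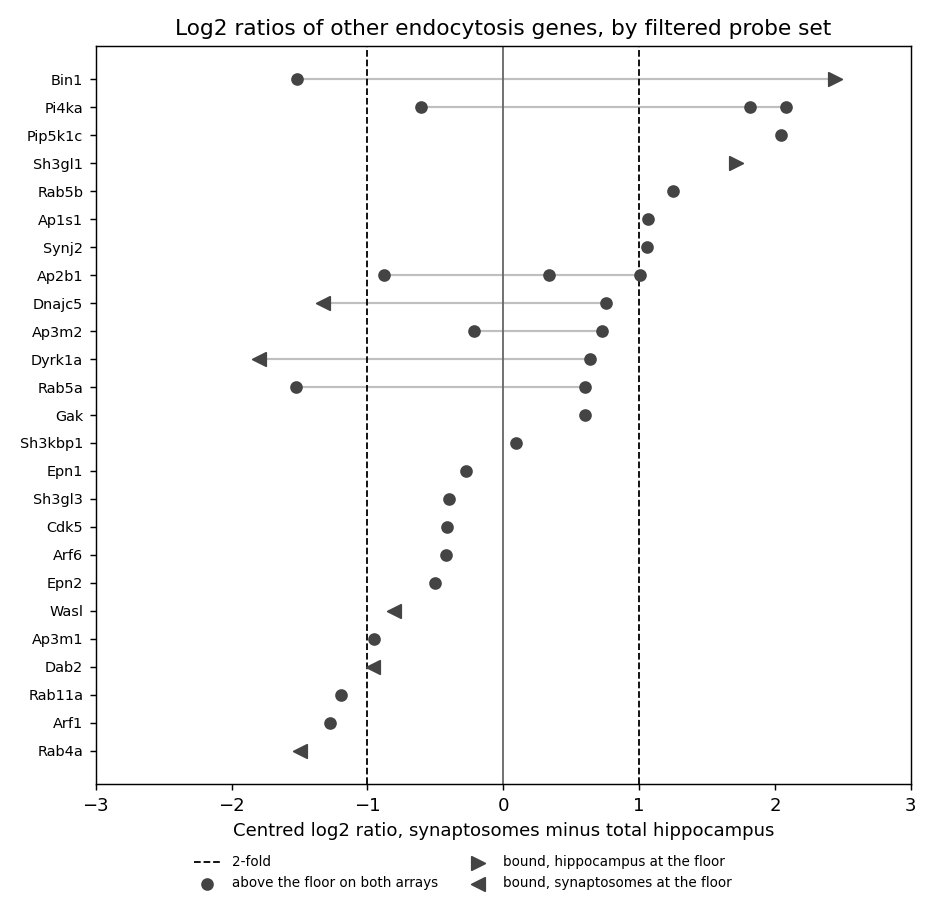
Centred log2 ratio, synaptosomes minus total hippocampus, of every filtered probe set of the 25 other endocytosis genes past the filter (rows), joined by a line where a gene has several; triangles are bounds with 1 signal at the floor and dashed lines are at 2-fold. Pip5k1c lies at 2.04 and Arf1 at -1.28, and the probe sets of Bin1 lie on opposite sides.

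The labelled fraction was set against markers of brain cell types. Of 6 neuronal markers on the array 6 passed the filter, with a median log2 ratio of 0.47 and a range of -1.56 for Snap25 to 0.92 for Nefm; their summed signal was 158335 in synaptosomes and 312070 in total hippocampus. The median of oligodendrocyte markers was -1.32 (3 of 5 at least 2-fold lower, 1 higher), with a summed signal of 33178 in synaptosomes and 81894 in total hippocampus, and that of the 6 astrocyte markers 0.27 (-1.51 for Slc1a2 to 1.34 for S100b), with 122691 in synaptosomes and 82705 in total hippocampus. Of 4 microglial markers on the array, 2 were under the floor on both arrays (Csf1r and Itgam), 1 passed the filter, and the summed signal was 18156 in synaptosomes and 6805 in total hippocampus. Of 4 endothelial markers 3 passed the filter, 2 of them at least 2-fold lower with a median of -1.21, Vwf was under the floor on both arrays, and the summed signal was 4747 in synaptosomes and 12999 in total hippocampus. The 3′ control probe set of β-actin was 7.79 times its 5′ one in synaptosomes and 4.96 times in total hippocampus, and for Gapdh these were 1.07 in synaptosomes and 1.05 in total hippocampus. The part of cell types and of RNA length in the members' ratios was not tested.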

How the data were processed

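RNA of 1 synaptosome sample and 1 total hippocampus sample was measured on arrays. Per the labels' protocols, column-purified total RNA was copied into SMART cDNA from a T7-tailed oligo(dT) primer and transcribed into biotin-labelled cRNA. The authors deposited linear intensity values; the sources used here do not give the scanner software, background correction or scaling. Trimmed by 2% at each end, the mean signal of all probe sets was 2504 in synaptosomes and 2505 in total hippocampus, so no further scaling was applied. Values at or below 0 made up 25.2% of non-control values in synaptosomes and 31.4% in total hippocampus. The equal trimmed means do not make the arrays alike in spread. Non-control values ran from -17752 to 96504 in synaptosomes and from -313672 to 519581 in total hippocampus. The median size of negative values was 513.5 in synaptosomes and 930.5 in total hippocampus.

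The floor of 846 is percentile 50 of the pooled non-control values. Signals under it were set to it before log2. The filter is the median of the mean log2 level, and the ratio was centred on its median over filtered probe sets. Genes were named from the platform's annotation, and all 10 member genes matched the rat RefSeq gene table of GRCr8. The named genes are the members, with every probe set, and from the list of other endocytosis genes those at least 2-fold higher or lower, paralogs of members and AP-1 or AP-2 subunits; the epsin, chaperone, cargo receptor, Arf6, Dab2 and Snap91 values were added after they were seen. Members, lists and settings were chosen with earlier results of these data known. Alternatives varied the floor, centring, filter, scaling, log transform and choice of probe sets. Ratios were computed in pandas 2.3.3 and NumPy 2.4.6 under Python 3.11.15, loess in statsmodels 0.14.6 and plots in matplotlib 3.10.9; the code was tested on simulated data.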

Additional observations from a re-analysis of the deposited data

How the results depend on the processing

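The counts of member probe sets at least 2-fold higher and lower, 6 and 1, were 2 and 0 with the floor at 2798.5 and 1 and 0 with each array's floor at its spread of negative values, where 9 and 6 member probe sets had a value. The higher count was 4 with no centring, with no filter and with the inverse hyperbolic sine, 5 with quantile normalization and loess, and 3 with only probe sets above the floor on both arrays and 3 without suffixed probe sets. By gene, 3 higher and 1 lower, the lower count was 0 with either stricter floor, and the higher count 1 with the floor per array. The higher count was 2 with the floor at 2798.5, with no centring and with no filter. It was also 2 with only probe sets above the floor on both arrays and with the inverse hyperbolic sine. Quantile normalization, loess, the mean over probe sets and leaving out suffixed probe sets kept it at 3. For the other endocytosis genes, 7 higher and 5 lower, both stricter floors gave 3 and 2, no centring gave 4 higher, and the mean over probe sets gave 3 lower. Over all filtered probe sets, 833 higher and 649 lower, the counts were 258 and 239 with the floor at 2798.5, 140 and 197 with the floor per array, and 427 and 413 above the floor on both arrays. No centring gave 646 higher and 888 lower. The median member ratio of 0.74 ranged from 0.39 to 0.70. The 12 member probe sets kept their sign in all 86 values that 8 alternatives gave, and 10 further values were not given. Signals there fell under the floor or the filter, or a bound pointed towards the array under its floor. Bounds of that kind were dropped by rule, as for the dimmer Clta and Synj1 probe sets with the floor per array. The kept signs are therefore partly fixed in advance. The cause of the changes in counts was not tested, beyond fewer probe sets being left. With 1 array a group there is no spread between animals, and signals under 2912.6 in synaptosomes or 5280.25 in total hippocampus limit every fold that uses them. No paired analysis was possible because each group has 1 array.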
